A study of Mus musculus with 4 samples.

Results

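The interferon-induced transmembrane (Ifitm) family was described in cells of the neonatal mouse tibia through 5 members, Ifitm1, Ifitm2, Ifitm3, Ifitm5 and Ifitm6. They were taken as named rows of the gene count matrix, 5 of 31053 genes, whatever their values. The cells came from a male mouse at postnatal day 6 with the genotype Col10a1Cre;Rosa26-Tdtomato;Irx3 +/Δ;Irx5 +/-, which the submitters call the Irx3/5 heterozygous control. Both tibiae of this animal were pooled, digested and run as 1 library of 3′ single-cell RNA sequencing, deposited as 4 sequencing entries that were counted together. All cells therefore lacked 1 Irx5 allele, while the conditional Irx3 allele was deleted where Col10a1Cre had acted, in HCs and their descendants, and no other genotype, age or animal was analysed here. Cre was driven by Col10a1, the collagen gene of hypertrophic chondrocytes (HCs), so that the Rosa26 reporter marked HCs and their descendants, including HC-derived osteoblasts.

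Ifitm proteins are small membrane proteins of the CD225 or dispanin group. Ifitm1, Ifitm2 and Ifitm3 are induced by interferon and restrict the entry of enveloped viruses by acting on membrane fusion, and Ifitm3 acts mainly on endosomal membranes. Ifitm5, also called Bril, is the bone-restricted member: it is made by mineralizing osteoblasts, and a mutation in its human counterpart causes type V osteogenesis imperfecta. Ifitm6 is a less studied member, known mostly from myeloid cells.

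The matrix held 14181 barcodes, of which 8255 passed the limits of at least 1600 genes and at most 10% mitochondrial UMIs (unique molecular identifiers, each standing for a captured transcript). The median depth of the kept cells was 13957 UMIs, and class medians ran from 5285 UMIs in T or NK-like cells to 31255 in early erythroid-like cells. Clustering without the Ifitm genes placed 6561 cells in 23 classes, named "-like" from marker genes, and left 1694 cells (20.5%) unnamed. In the mature osteoblast-like class 11 of 12 markers reached 10 UMIs per 1000000, Mepe being the exception, and the sinusoidal endothelial-like class rested on 4 of 6. The class that the hypertrophic marker list named was led by Pth1r and Ihh, genes of pre-hypertrophic chondrocytes, and is called by these genes, and 4.24% of its 330 cells passed the reporter limit used below. The cluster led by Col10a1 itself stayed unnamed. A level is given as CPM, the UMIs of a gene per 1000000 UMIs of a class, with an exact Poisson 95% interval. A share of cells has an exact binomial (Clopper-Pearson) 95% interval after each cell was thinned to 5000 UMIs. With 1 library there was no replicate and no test, and all intervals cover counting error only. Although 3′ UMI counts do not follow transcript length, how well each gene is captured was not measured, so levels were compared mainly between classes. Genes are set beside each other only by total UMIs, by common CPM limits and per UMIs of a reference gene. Fewer cells and less RNA per cell cannot be told apart in a class total, which is why the shares of cells are given as well.

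All 5 members lay together on chromosome 7, within chr7:140948958-141017924 (GRCm38, the assembly that mm10 names), a span of 69.0 kb. Ifitm5 (ENSMUSG00000025489, chr7:140948958-140950291), Ifitm2 (ENSMUSG00000060591, chr7:140954837-140955987), Ifitm3 (ENSMUSG00000025492, chr7:141009586-141010770) and Ifitm6 (ENSMUSG00000059108, chr7:141015699-141017924) were annotated on the minus strand. Ifitm1 (ENSMUSG00000025491, chr7:140967221-140969825) was the plus-strand member. Ifitm2, Ifitm3 and Ifitm5 had 2 annotated exons each, and Ifitm1 and Ifitm6 had up to 3. Ifitm2 and Ifitm5 share exonic bases with Gm45717, a gene model on the same strand that spans both: 268 of the 655 exonic bases of Ifitm2 and 227 of the 765 of Ifitm5 belong to it as well. Gm45717 had 0 UMIs in the kept cells, and 337 and 264 exonic bases of Ifitm2 and Ifitm5 lie 3′ of the shared part. Among the members' transcripts the longest identical run was 69 bases, between Ifitm2 and Ifitm3, and 64 bases between Ifitm1 and Ifitm3. Reads confined to such a run could not be assigned to either gene. The read length stated in the paper is longer than either run, so this would touch only reads aligned over fewer bases. How far it affects the levels of Ifitm1, Ifitm2 and Ifitm3 was not measured. Ifitm5 shared at most 10 bases in a row with any other member.

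The sequences before the starts of 3 members are shown because these members peaked in different cells below, and the start of Ifitm3 because its motif lies there. They are RefSeq promoter windows on GRCm38.p6, which held all 5 members, printed 5′ to 3′ on the gene's strand. The stretches were trimmed to the longest run before the RefSeq start that lies in no annotated exon. The RefSeq start of Ifitm6 (141016892) lies inside its annotated gene, and so does the printed Ifitm6 stretch. That of Ifitm1 (140968076) also lies inside its annotated gene. Capitals mark matches to the ISRE core (GAAA, any 2 bases, GAAA) of the interferon-stimulated response element, to the GC box GGGCGG of Sp-type factors, and to the RUNX site TGTGGT, each searched on both strands. The Ifitm5 stretch covers chr7:140950292-140950493, the Ifitm2 stretch chr7:140955988-140956211 and the Ifitm6 stretch chr7:141016909-141017142. The Ifitm3 site covers chr7:141010716-141010742, 27 bases inside its first annotated exon.
Ifitm5: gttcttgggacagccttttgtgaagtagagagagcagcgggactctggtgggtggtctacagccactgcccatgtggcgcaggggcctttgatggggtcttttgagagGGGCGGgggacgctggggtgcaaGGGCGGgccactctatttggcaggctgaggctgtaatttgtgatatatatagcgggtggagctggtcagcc
Ifitm2: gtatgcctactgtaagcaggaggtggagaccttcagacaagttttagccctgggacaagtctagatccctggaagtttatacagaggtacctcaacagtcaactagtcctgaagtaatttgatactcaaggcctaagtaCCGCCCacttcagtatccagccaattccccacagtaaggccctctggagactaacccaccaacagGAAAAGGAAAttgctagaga
Ifitm3 site: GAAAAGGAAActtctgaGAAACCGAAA
Ifitm6: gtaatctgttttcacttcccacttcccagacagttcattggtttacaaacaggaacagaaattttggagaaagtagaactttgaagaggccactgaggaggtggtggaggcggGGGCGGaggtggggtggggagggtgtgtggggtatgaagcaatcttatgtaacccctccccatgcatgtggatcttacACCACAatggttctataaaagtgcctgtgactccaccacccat
Ifitm2 had an ISRE core at position -46 from the RefSeq start, and Ifitm3 had a pair at positions 2 and 19. The windows of Ifitm1, Ifitm5 and Ifitm6 had 0 matches to it. For Ifitm1 and Ifitm6 this covers a start inside the annotated gene, and their outermost annotated starts were not searched. In windows of the same 300 bases, 3.44% of 32851 promoters held an ISRE core, against 12 of 22 (54.5%) of the fixed list of interferon-stimulated genes with a promoter. Ifitm5 had GC boxes at positions -142 and -119, and Ifitm2, Ifitm3 and Ifitm6 also had at least 1, with 35.7% of all promoters holding a GC box. A GAS match (TTCNNNGAA, the gamma-interferon site, in 8.30% of promoters) lay at position 13 of Ifitm3, where it overlapped the ISRE pair, and at -10 of Ifitm6. Ifitm6 also held a RUNX match at -59 (16.8% of promoters). These matches describe letters in a window and say nothing of binding.

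In the kept cells Ifitm2 had 54169 UMIs, Ifitm3 45152, Ifitm6 10120, Ifitm5 7268 and Ifitm1 3252. Ifitm2 was the broadest member: its level reached 10 CPM in 23 of 23 classes and 100 CPM in 20. Its T or NK-like level, 19.3 CPM (3.99 to 56.5), rested on 3 UMIs. Ifitm3 reached 10 CPM in 22 classes, 100 CPM in 14 and 1000 CPM in 6. The other members reached such levels in fewer classes, with 100 CPM in 3 classes for Ifitm1, in 2 for Ifitm5 and in 3 for Ifitm6. Those for Ifitm6 include the 13 Schwann-like cells, with 15 UMIs. Each member had a different class at the top of its order: basophil or mast-like cells for Ifitm1, fibroblast-like cells for Ifitm2, sinusoidal endothelial-like cells for Ifitm3, mature osteoblast-like cells for Ifitm5 and neutrophil myelocyte-like cells for Ifitm6. Of the 22 pairs of neighbours in each order, counting intervals overlapped in 14 for Ifitm3, 16 for Ifitm2, 18 for Ifitm1 and Ifitm6 and 19 for Ifitm5, so most neighbouring classes were not separated.

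**Figure D1:**
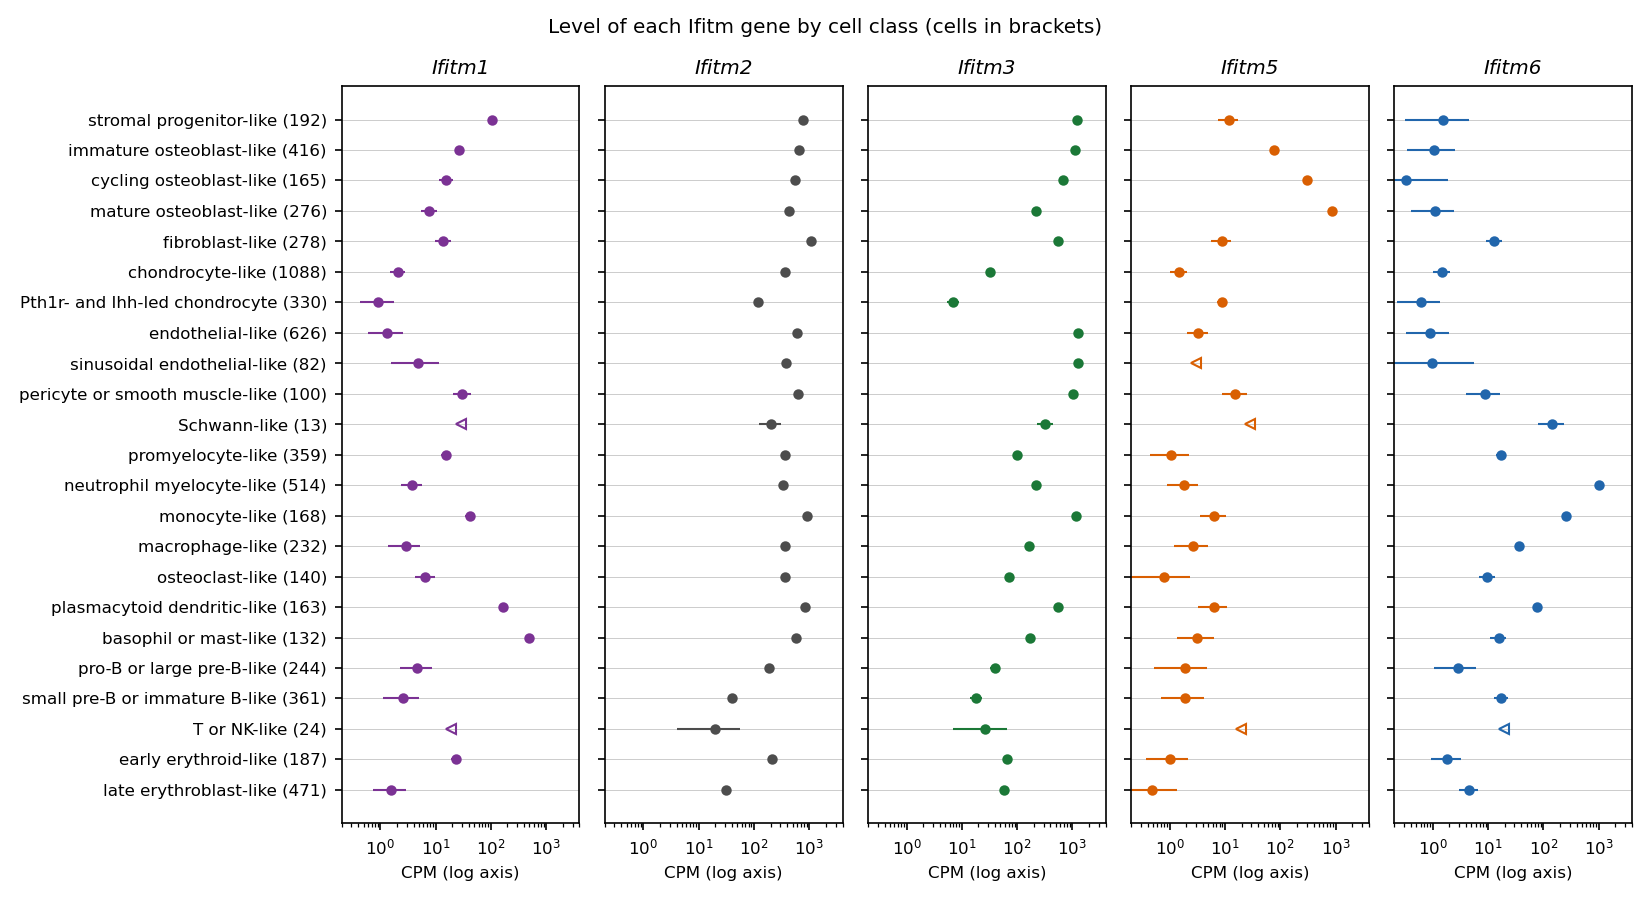
Level of each Ifitm member (CPM, log axis) in the 23 named classes, with the number of cells in brackets; bars are exact Poisson 95% intervals and open triangles mark 0 UMIs at the level that 3 UMIs would give. Ifitm2 lies between 19.3 and 1066 CPM across all classes, whereas Ifitm5 is at 871 CPM in mature osteoblast-like cells and under 20 CPM outside the osteoblast-like classes.

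Ifitm5 was the member whose level rose over the 4 osteogenic classes. These are called stages below, though cycling is a state and its place between immature and mature was not tested. In stromal progenitor-like cells, the Cxcl12- and Adipoq-expressing marrow stroma, it stood at 11.7 CPM (7.41 to 17.5, 23 UMIs, 192 cells). It stood at 77.3 CPM (69.5 to 85.6, 416 cells) in immature osteoblast-like cells and at 300.1 CPM (281 to 320.4, 165 cells) in cycling osteoblast-like cells. Mature osteoblast-like cells, marked by osteocalcin (Bglap) and Dmp1, held 871 CPM (846 to 896, 276 cells). None of these intervals overlapped its neighbour. The share of cells with an Ifitm5 UMI at 5000 UMIs per cell followed the same order: 0.543% (0.0138 to 2.99) of progenitor-like, 14.7% (11.4 to 18.6) of immature, 32.5% (25.4 to 40.3) of cycling and 94.2% (90.8 to 96.7) of mature osteoblast-like cells. Without thinning these shares were 1.56%, 22.1%, 42.4% and 98.6%. The share was 1.39% (0.381 to 3.53) in small pre-B or immature B-like cells and 0.212% in late erythroblast-like cells, which should lack the gene, so the progenitor-like share was at the background. The progenitor-like level was above that of the B-like, 1.92 CPM (0.703 to 4.17), and erythroblast-like cells, 0.469 CPM (0.0968 to 1.37). It rested on few cells, since its 23 UMIs lay in 1.56% of 192. Median depths of the 4 osteogenic classes were 9459, 10382, 16856 and 18346.5 UMIs, and 6942 and 12409 UMIs in these B-like and erythroblast-like cells.

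The level of a class hid differences between its clusters. Within the immature class Ifitm5 was at 3.90 CPM in the 109 cells led by Mmp9 and Mmp13, matrix metalloproteinases, and at 17.5 CPM in the 179 cells led by the Wnt inhibitor Wif1. It was at 199 CPM in the 128 cells led by osteopontin (Spp1), so the class level rested on this cluster. Under other cell limits and clusterings the class held between 14.2 and 113 CPM, at each setting below the mature class. Within the mature class it was at 911 CPM in the 111 cells led by Ibsp and Car3 and at 885 CPM in the 148 cells led by the osteocalcin genes. In the 17 cells led by Dmp1 and Phex, markers of cells becoming osteocytes, it was at 308 CPM (240 to 389), below the other mature clusters. Among single mature osteoblast-like cells the quartiles of Ifitm5 were 482, 806 and 1200.2 CPM, a wide spread in a class where nearly every cell held a UMI.

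Ifitm3 ran the other way along the same stages. Its level was 1187 CPM (1140 to 1237) in progenitor-like, 1111 CPM (1081 to 1142) in immature, 678 CPM (649 to 708) in cycling and 220 CPM (207 to 232) in mature osteoblast-like cells. The progenitor-like and immature intervals overlapped, and the lower levels were separated from each other. By cluster Ifitm3 was highest, at 1358 CPM, in the Mmp9- and Mmp13-led immature cells and lowest, at 52.7 CPM (27.3 to 92.1), in the Dmp1- and Phex-led cells. The share of cells with an Ifitm3 UMI was 98.4% (95.3 to 99.7) in progenitor-like and 61.6% (55.6 to 67.4) in mature osteoblast-like cells, against 5.92% (3.49 to 9.31) in small pre-B or immature B-like cells.

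Ifitm1, a cell-surface member of the interferon-induced group, was a progenitor gene within bone. It stood at 107 CPM (92.8 to 122) in stromal progenitor-like, 26.6 CPM (22.1 to 31.7) in immature, 15.6 CPM (11.5 to 20.8) in cycling and 7.72 CPM (5.57 to 10.4) in mature osteoblast-like cells. Each level was below the interval of the class before it. An Ifitm1 UMI was present in 40.8% (33.6 to 48.2) of progenitor-like cells and in 3.26% (1.502 to 6.10) of mature osteoblast-like cells, with 0.697% in small pre-B or immature B-like cells.

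Ifitm2 differed least between the stages. It stood at 759 CPM (721 to 799) in progenitor-like, 659 CPM (636 to 683) in immature, 547 CPM (521 to 574) in cycling and 436 CPM (419 to 454) in mature osteoblast-like cells. At least 84.4% of the thinned cells of each osteogenic class held an Ifitm2 UMI, the lowest share being in the mature class, against 14.98% of small pre-B or immature B-like and 10.4% of late erythroblast-like cells. Ifitm6 stayed between 0.332 and 1.52 CPM in the 4 classes, on 1 to 6 UMIs each, and had no measurable pattern in them.

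**Figure D2:**
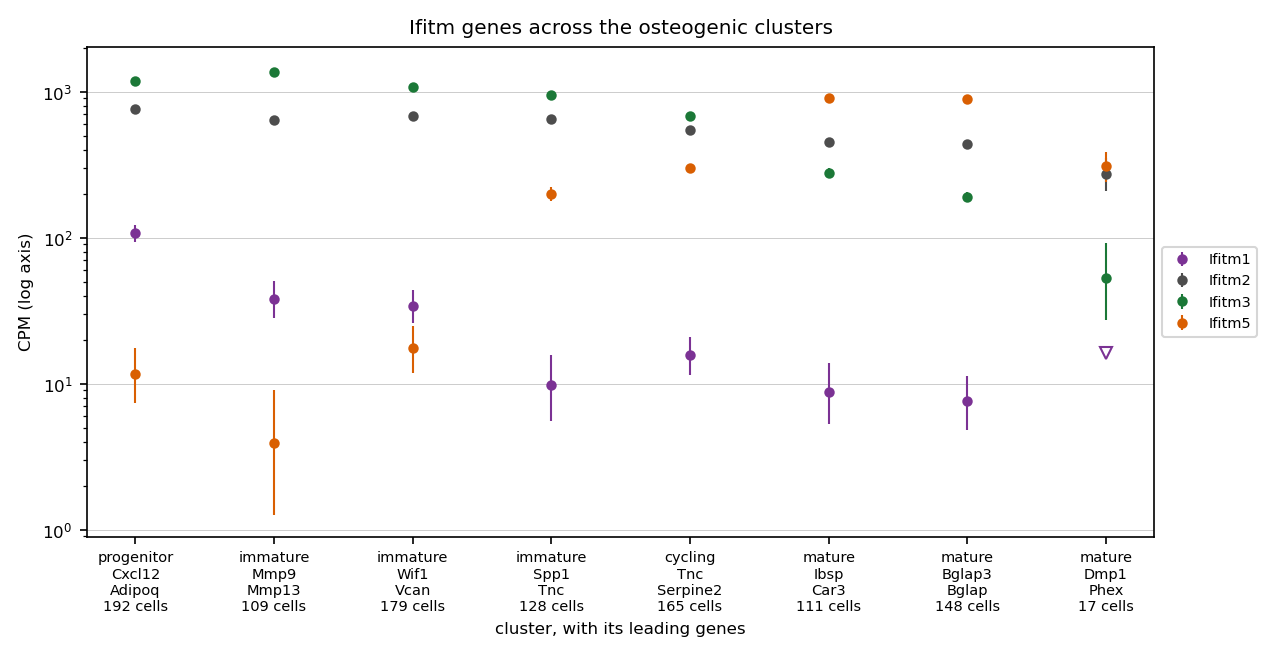
Ifitm1, Ifitm2, Ifitm3 and Ifitm5 (CPM, log axis) in the 8 osteogenic clusters, labelled by class, leading genes and cells; bars are exact Poisson 95% intervals and the open triangle marks the upper limit at 0 UMIs. Ifitm5 is at 3.90 to 17.5 CPM in the progenitor-like, Mmp9-led and Wif1-led clusters and at 911 and 885 CPM in the larger mature clusters, where Ifitm1 and Ifitm3 are low.

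Set against each other, mature and immature osteoblast-like cells differed in Ifitm5 by a log2 ratio of CPM + 1 of 3.48 (counting interval 3.32 to 3.63), higher in mature cells. Ifitm3 gave -2.33 (-2.43 to -2.24), Ifitm1 -1.66 (-2.17 to -1.17) and Ifitm2 -0.59 (-0.67 to -0.52), all lower in mature cells. The median of the 8134 genes at 10 CPM or more in either class was -0.51, so Ifitm2 lay close to the middle of all genes and Ifitm5 at percentile 99.8. A gene was counted as higher or lower at a log2 ratio of at least 1: by this rule 1 member was higher, where 4.57% of all genes were, and 2 were lower, where 21.7% were. Ifitm6 did not reach 10 CPM. Since single members reached 10 CPM only through the class where they were high, these counts describe genes and not the family.

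Stromal progenitor-like over mature osteoblast-like cells gave log2 ratios of 3.63 (3.17 to 4.11) for Ifitm1, 2.43 (2.33 to 2.53) for Ifitm3 and 0.80 (0.70 to 0.89) for Ifitm2. Ifitm5 gave -6.10 (-6.73 to -5.54). The all-gene median was 0.65, and 2 members were higher, where 32.5% of 8479 genes were, and 1 was lower, where 6.1% were. This comparison and the last share the mature cells, so they are not independent.

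The scale bears on these values because 45.4% of the UMIs of mature cells fell on mitochondrial, ribosomal protein, haemoglobin and other very abundant genes. Without these genes the all-gene median went from -0.51 to -0.26 for mature over immature cells, and the higher and lower genes from 372 and 1768 (17.4% higher) to 647 and 1433 (31.1%). For progenitor-like over mature cells the median went from 0.65 to 0.24, and the split from 2757 and 517 (84.2% higher) to 1908 and 948 (66.8%). Ifitm1, Ifitm2, Ifitm3 and Ifitm5 kept their direction on this scale in both comparisons, with Ifitm2 at -0.33 and 0.38.

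Among the named classes, endothelial-like cells had the highest Ifitm3. The level was 1250.4 CPM (1224 to 1277) in the 626 endothelial-like cells and 1274 CPM (1205 to 1345) in the 82 sinusoidal endothelial-like cells, which line the marrow sinusoids. These levels and that of progenitor-like cells had overlapping neighbours. By cluster the endothelial-like level ran from 1061 CPM in cells led by Aplnr and Plvap to 1464 CPM in those led by the adhesion molecules Selp and Sele. An Ifitm3 UMI was found in 97.8% (96.2 to 98.9) of endothelial-like cells. Pericyte or smooth muscle-like cells, the mural cells of vessels, held 1028 CPM (968 to 1092) of Ifitm3.

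Ifitm2, unlike Ifitm3, differed between the kinds of endothelium: it stood at 602 CPM (584 to 621) in endothelial-like and 384 CPM (346 to 424) in sinusoidal endothelial-like cells. It reached 979 CPM in the cluster led by Eln and Gja4, genes of arterial walls. Ifitm1 was low on both kinds of endothelium, at 1.33 CPM (0.610 to 2.53) and 4.92 CPM (1.60 to 11.5), but stood at 30.6 CPM (20.9 to 43.2) in the mural cells. Ifitm5 had 22 UMIs in endothelial-like cells, 3.26 CPM, and 0 in sinusoidal endothelial-like cells, where 3 UMIs would be 2.95 CPM.

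All endothelial-like cells over all osteogenic cells (708 and 1049 cells) gave log2 ratios of 0.81 (0.77 to 0.85) for Ifitm3, -3.37 (-4.07 to -2.75) for Ifitm1 and -6.70 (-7.28 to -6.19) for Ifitm5. Ifitm2 gave 0.01 (-0.04 to 0.06), with levels of 574 and 570 CPM, and -0.19 without the very abundant genes, so it has no settled direction. By the log2 ratio of 1, 0 members were higher, where 21.0% of 8873 genes were, and 2 were lower, where 12.9% were. Ifitm3 passed that ratio, at 1.38, when cells were held to 5% mitochondrial UMIs, which left 39 endothelial-like cells. The all-gene median was 0.26, and 0.03 without the very abundant genes, where the split of higher and lower genes went from 1862 and 1146 (61.9% higher) to 1563 and 1668 (48.4%).

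The other skeletal classes differed most in Ifitm3. Fibroblast-like cells, led by tendon and periosteal genes such as Tnmd and Aspn, had the highest Ifitm2 of all classes at 1066 CPM (1029 to 1104), with Ifitm3 at 541 CPM (515 to 568). Chondrocyte-like cells held Ifitm2 at 363 CPM (355 to 371) and Ifitm3 at 32.3 CPM (29.9 to 34.8). The Pth1r- and Ihh-led chondrocyte cells were lower still, with Ifitm2 at 118 CPM (111 to 125) and Ifitm3 at 6.90 CPM (5.35 to 8.76), the lowest Ifitm3 of all classes. The unnamed Col10a1-led cluster of 105 cells, picked after its values were seen, held 160.2 CPM of Ifitm2 and 38.6 CPM (32.4 to 45.6) of Ifitm3. The share of cells with an Ifitm3 UMI was 2.43% in the Pth1r- and Ihh-led class, under the 5.92% of small pre-B or immature B-like cells, and is read as background.

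Among leukocytes, each myeloid class had its own mix of members. Ifitm6 was at 1020.2 CPM (995 to 1046) in neutrophil myelocyte-like cells and at 261 CPM (242 to 282) in monocyte-like cells, and 87.5% (84.4 to 90.3) and 61.1% (53.2 to 68.5) of their cells held a UMI. In small pre-B or immature B-like cells that share was 3.48% (1.68 to 6.31). In promyelocyte-like cells, the stage before myelocytes with the primary granule genes Elane and Mpo, Ifitm6 was at 17.1 CPM (14.04 to 20.6). Between the 3 myelocyte-like clusters it stood at 287 CPM in the 121 cells led by Fcnb and Camp, 1238 CPM in the 287 cells led by lactoferrin (Ltf) and 1683 CPM in the 106 cells led by Stfa3. Plasmacytoid dendritic-like cells held 76.4 CPM (64.6 to 89.9) and macrophage-like cells 36.3 CPM (30.2 to 43.3). Of the 146 Ifitm6 UMIs of plasmacytoid dendritic-like cells, 108 lay in cells without a UMI of the class marker Siglech, a split made after the values were seen.

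Ifitm3 and Ifitm2 were high in monocyte-like cells, a cluster led by the inflammatory genes Il6 and Il1b, at 1171 CPM (1129 to 1214) and 894 CPM (858 to 932). Both were lower in macrophage-like cells, at 164 CPM (150.4 to 178) and 360.03 CPM (340.3 to 381), and in osteoclast-like cells, at 70.0 CPM (61.9 to 79.0) and 365 CPM (347 to 385). The B-lineage classes were low in both: pro-B or large pre-B-like cells held 40.4 CPM of Ifitm3 and 187 CPM of Ifitm2, and small pre-B or immature B-like cells 18.2 and 40.2 CPM. T or NK-like cells, only 24, held 4 and 3 UMIs of these genes, and late erythroblast-like cells 58.5 and 31.0 CPM.

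Ifitm1 was highest in basophil or mast-like cells, at 493 CPM (466 to 522, 132 cells), followed by plasmacytoid dendritic-like cells at 166 CPM (148 to 185) and the stromal progenitor-like cells at 107 CPM. These 3 were separated from each other and from the next class, monocyte-like cells at 41.4 CPM (33.9 to 50.1). An Ifitm1 UMI was present in 50% (41.2 to 58.8) of basophil or mast-like cells, 31.4% (24.1 to 39.4) of plasmacytoid dendritic-like cells and 1.36% of neutrophil myelocyte-like cells. The median basophil or mast-like cell held 140 CPM and the upper quartile 380.1 CPM, so the class level lay above 3 in 4 of its cells. With at most 5% mitochondrial UMIs, which left 11 of these cells, it was 2894 CPM. In the main setting 39 of the 132 cells had a UMI of Mcpt8, a marker used to name the class.

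A pair of unnamed leukocyte clusters, described after their values were seen, held the highest Ifitm3 and Ifitm2 of all clusters. The 269 cells led by Cxcl2, Cd14 and Wfdc17 held 2362 CPM of Ifitm3, 1522 CPM of Ifitm2 and 463 CPM of Ifitm6. The 175 cells led by Tnf, Ccl3 and Treml4 held 1802, 1492 and 432 CPM of these genes. Their cells were named as leukocytes in the first clustering, and Ptprc stood at 515 and 646 CPM in them. That clustering held a monocyte-named cluster of 425 cells led by Il1b and Cd14. It also held a late neutrophil-named cluster of 200 cells led by Tnf and Ccl3. When leukocytes were clustered again no marker list led either of the pair, so this naming step put them outside the monocyte-like class and the leukocyte totals. Their median depths were 7157 and 5994 UMIs.

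**Figure D3:**
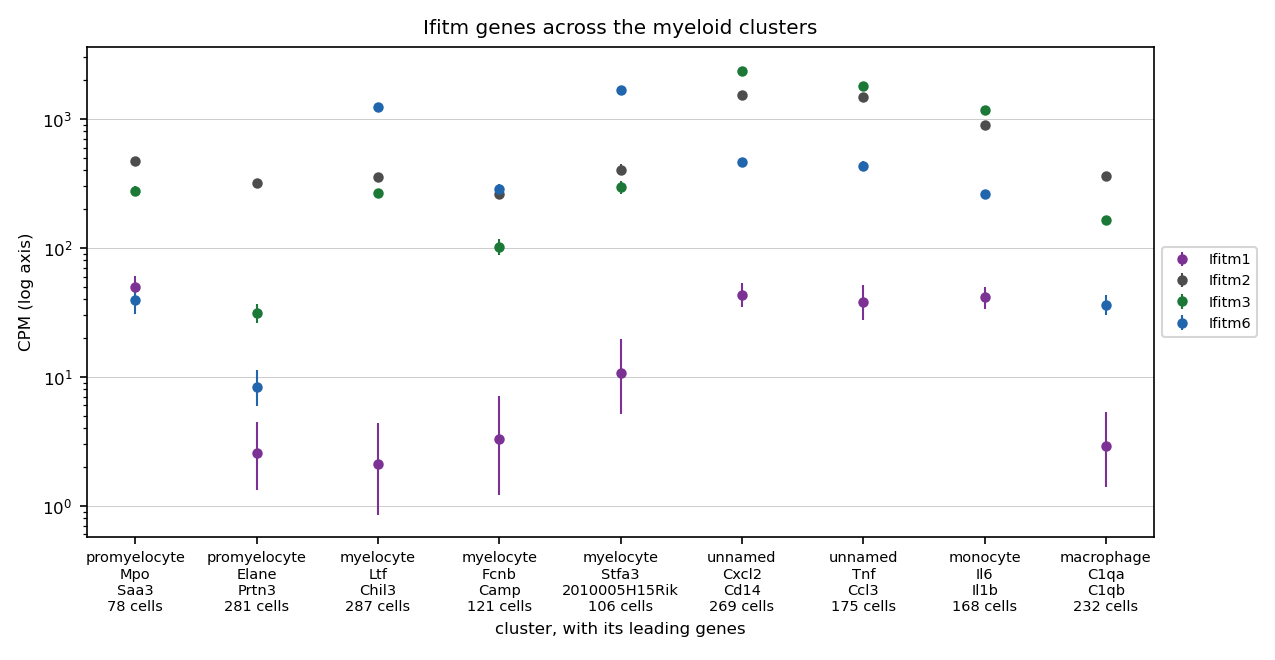
Ifitm1, Ifitm2, Ifitm3 and Ifitm6 (CPM, log axis) in 9 myeloid clusters, labelled by class, leading genes and cells; bars are exact Poisson 95% intervals. Ifitm6 is highest, at 1238 and 1683 CPM, in the Ltf-led and Stfa3-led myelocyte-like clusters, whereas Ifitm3 is highest, at 2362 and 1802 CPM, in the unnamed clusters.

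All leukocyte-like over all osteogenic cells (2197 and 1049 cells) gave a log2 ratio of 7.02 (6.51 to 7.59) for Ifitm6 and 1.16 (1.011 to 1.32) for Ifitm1. Ifitm5 gave -6.81 (-7.10 to -6.52), Ifitm3 -1.50 (-1.54 to -1.45) and Ifitm2 -0.49 (-0.53 to -0.45). All 5 members reached 10 CPM here: 2 were higher, where 22.2% of 9176 genes were, and 2 were lower, where 22.7% were, beside an all-gene median of 0.13. The osteogenic cells are the same as in the endothelial comparison. Of the 1817 Ifitm1 UMIs of leukocyte-like cells, 1242 lay in the 132 basophil or mast-like cells. Without thinning, an Ifitm1 UMI was present in 14.7% of leukocyte-like and 23.7% of osteogenic cells, the opposite order to the levels. Ifitm1 missed the ratio of 1, at 0.81, without the cells that the doublet caller Scrublet marked and at 0.64 as a mean over cells. Ifitm3 missed it, at -0.79 to -0.93, with other limits on genes per cell, with at most 5% mitochondrial UMIs and with coarser clustering. The unnamed leukocyte clusters at 2362 and 1802 CPM of Ifitm3 lay above the 714 CPM of osteogenic cells. They are outside this leukocyte total, and a ratio that includes them was not computed.

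Droplets also take up free RNA, so low values were set beside abundant genes of the likely source cells. Per 1000 Col1a1 UMIs, Ifitm5 had 11.1 UMIs in mature osteoblast-like cells, 11.02 (6.90 to 16.7) in endothelial-like cells and 0.439 (0.287 to 0.644) in fibroblast-like cells, which make Col1a1 themselves. In the Pth1r- and Ihh-led chondrocyte cells the number was 61.7 (49.4 to 76.2), from 86 Ifitm5 UMIs at 8.85 CPM, with Bglap at 16.4 CPM. In the unnamed Col10a1-led cluster it was 57.2 (43.0 to 74.6), with Ifitm5 at 15.3 CPM. Both ratios were above that of mature osteoblast-like cells. Per 1000 Bglap UMIs these ratios were 541 (433 to 668) and 692 (520 to 903), against 69.6 in mature osteoblast-like cells. The order depended on the reference gene. Per 1000 Ibsp UMIs Ifitm5 had 55.4 UMIs in the Pth1r- and Ihh-led and 3.75 in the Col10a1-led cells, against 104 in mature osteoblast-like cells. Per 1000 Spp1 UMIs the numbers were 19.3, 0.991 and 65.5. The Col10a1-led cells held Ibsp at 4084 CPM and Spp1 at 15454.5 CPM. Neither reference is plainly free RNA in them. An Ifitm5 UMI was present in 3.95% (2.12 to 6.66) of the Pth1r- and Ihh-led chondrocyte cells and 1.39% (0.381 to 3.53) of small pre-B or immature B-like cells, with overlapping intervals. The intervals of their levels, 8.85 (7.08 to 10.9) and 1.92 CPM (0.703 to 4.17), did not overlap. Per 1000 UMIs of S100a8, an abundant neutrophil gene, Ifitm6 had 12.6 UMIs in neutrophil myelocyte-like cells and 17.2 (12.9 to 22.4) in small pre-B or immature B-like cells. In macrophage-like cells it had 19.2 (16.0 to 22.8), with an interval overlapping that of the B-like cells, and 6.90% of macrophage-like cells held a UMI without thinning. Ifitm6 had 55.2 (51.1 to 59.5) in monocyte-like and 80.1 (67.7 to 94.2) in plasmacytoid dendritic-like cells, above the source class. The Ifitm6 of the 13 Schwann-like cells, 143 CPM, was 15 UMIs in 7.69% of cells, with S100a8 at 5124 CPM beside it.

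The study's own split of osteogenic cells asks whether HC-derived osteoblasts differ from the others, a cell being HC-derived with more than 14 UMIs of WPRE, the element behind the reporter. By the genotype, HC-derived cells had lost the conditional Irx3 allele and the others kept it. Origin and Irx3 dose therefore cannot be told apart in this split. Of the mature osteoblast-like cells 98 (35.5%) were HC-derived and 178 were not. Ifitm5 stood at 930 CPM (888 to 973) in the HC-derived and 836 CPM (806 to 867) in the other mature cells, a log2 ratio of 0.15 (0.07 to 0.24), which was 0.07 (-0.01 to 0.15) without the very abundant genes. By cluster the order was not the same throughout: it was 897 (848 to 947) against 938 CPM (870 to 1010) in the Ibsp- and Car3-led cells, with overlapping intervals. It was 1063 (978 to 1153) against 846 CPM (810 to 883) in the osteocalcin-led cells and 550 (389 to 755) against 202 CPM (138 to 285) in the Dmp1- and Phex-led cells, 4 and 13 in number, where the intervals did not overlap. Ifitm2 gave 0.13 (0.01 to 0.25) and Ifitm3 -0.06 (-0.23 to 0.11).

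Over all osteogenic cells Ifitm5 stood at 525 and 346 CPM, but HC-derived cells were 35.5% of the mature and 14.6% of the progenitor-like cells, so values are given by stage. In cycling osteoblast-like cells Ifitm5 stood at 386 CPM (348 to 427) in 47 HC-derived and 258 CPM (237 to 281) in 118 other cells. With the reporter read as at least 1 tdTomato UMI the order turned, 235 CPM in 19 cells against 311 CPM. In progenitor-like cells Ifitm1 stood at 176 CPM (133 to 229) in 28 HC-derived and 93.7 CPM (79.5 to 110) in 164 other cells. By tdTomato it stood at 57.7 CPM (23.2 to 119, 7 UMIs) in 9 cells and 110 CPM (95.4 to 126) in the rest. These intervals overlapped, so the order by WPRE was not repeated and no reversed order is shown. In immature cells Ifitm5 stood at 70.9 and 79.3 CPM with overlapping intervals, and at 112 and 73.3 CPM by tdTomato. Ifitm1 in immature cells was higher in HC-derived cells under both readings, at 35.9 against 23.6 CPM (log2 ratio 0.58, 0.02 to 1.13) by WPRE and 56.1 against 23.2 CPM by tdTomato. Ifitm3 was higher in HC-derived progenitor-like cells under both readings, at log2 ratios of 0.20 (0.04 to 0.35) and 0.25 (0.01 to 0.47). In cycling cells Ifitm3 was lower in HC-derived cells under both, at -0.26 (-0.40 to -0.12) and -0.24 (-0.43 to -0.05). Both readings are of the same reporter in overlapping cells, so they are not independent of each other. The immature clusters held Ifitm1 at 33.9, 9.73 and 38.2 CPM, and the split was not made within them.

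**Figure D4:**
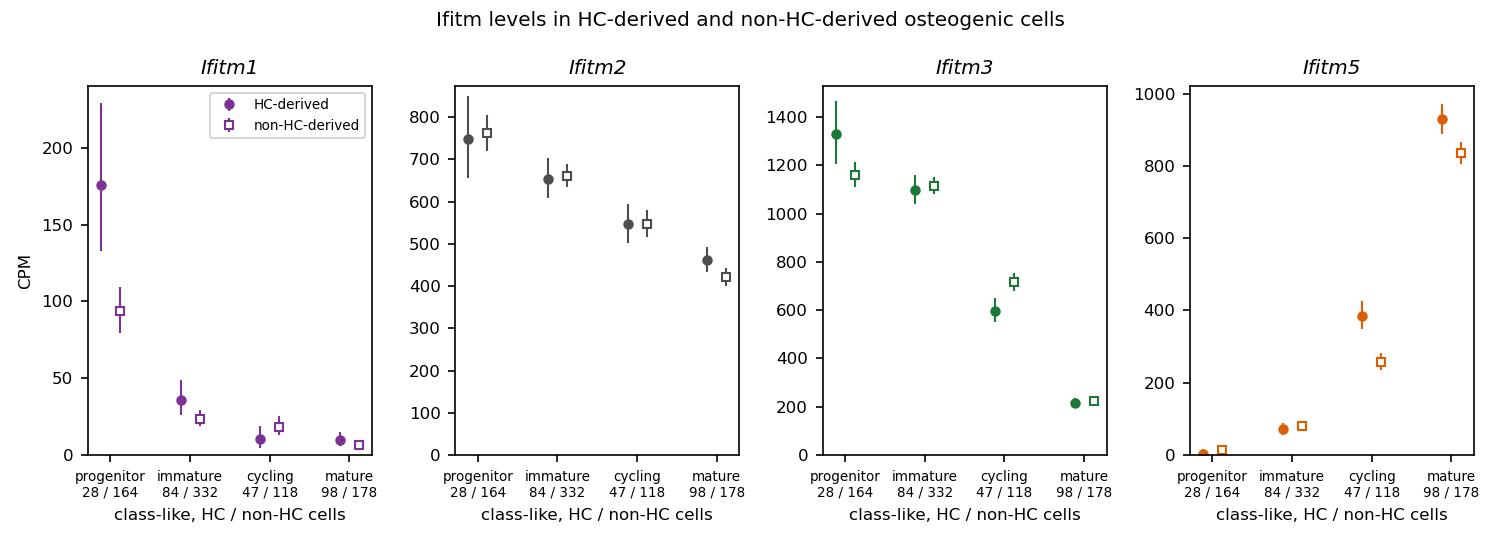
Level (CPM) of Ifitm1, Ifitm2, Ifitm3 and Ifitm5 in HC-derived (filled circles) and non-HC-derived cells (open squares) of the 4 osteogenic classes, with the cells of each below; bars are exact Poisson 95% intervals. For Ifitm5 the mature and immature stages lie farther apart than the filled and open points within them, at 930 and 836 CPM in mature cells against 70.9 and 79.3 CPM in immature cells.

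The fixed list of 30 interferon-stimulated genes, of which 29 were in the matrix, went the way of Ifitm1 and Ifitm3 in bone. Mature over immature cells had 7 of its genes at 10 CPM, 0 higher and 6 lower, with a median of -1.45 against -0.51 for all genes. Lgals3bp was at 3.68 and 27.03 CPM, Ifi27 at 21.9 and 102 CPM and the antiviral tether Bst2 at 9.93 and 28.9 CPM. Progenitor-like over mature cells had 10 of 11 higher, with a median of 1.97 against 0.65. Endothelial-like over osteogenic cells had 9 of 13 higher, led by Rsad2 (30.3 and 1.26 CPM) and Rtp4 (21.8 and 1.32 CPM), and 0 lower, with a median of 1.55 against 0.26. Leukocyte-like over osteogenic cells had 7 of its genes at 10 CPM, 2 higher and 0 lower, with a median of 0.36 against 0.13. Bst2 was at 82.7 and 25.9 CPM there. Over osteogenic cells Ifitm3 was at 0.81 in endothelial-like and -1.50 in leukocyte-like cells. Ifitm1 was at -3.37 and 1.16, so neither member followed the list in both. Of all genes 21.7% were lower in mature than immature cells. The shares higher were 32.5% in progenitor-like, 21.0% in endothelial-like and 22.2% in leukocyte-like cells. The shares lower were 12.9% in endothelial-like and 22.7% in leukocyte-like cells. The summed level of the list was 440.2 CPM in progenitor-like, 259 in immature, 192 in cycling and 85.9 in mature osteoblast-like cells, and 873 CPM in plasmacytoid dendritic-like cells, where Bst2 alone held 655 CPM.

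The interferon receptors and their kinases moved less. Of 6 at 10 CPM, Ifnar1 (12.9 and 35.1 CPM) and Ifngr2 (23.7 and 59.2 CPM) were lower in mature than immature cells. For all genes 21.7% were lower and the median was -0.51, against -0.28 for the list. Against osteogenic cells 3 of 7 were higher in endothelial-like cells, namely Jak2, Ifnar1 and Jak1, where 21.0% of all genes were. The median was 0.49 against 0.26 for all genes. In leukocyte-like cells 0 of 7 passed a log2 ratio of 1, where 22.2% of all genes were higher and 22.7% lower. The median there was 0.40 against 0.13.

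Among 8 genes known as partners or modifiers of IFITM proteins, the prolyl isomerase Fkbp11, which binds Ifitm5, had the order of Ifitm5 within the osteogenic classes only. Fkbp11 also stood at 451 CPM in Pth1r- and Ihh-led, 358 in chondrocyte-like and 201 in fibroblast-like cells. Ifitm5 was at 8.85, 1.47 and 8.74 CPM there. In the osteogenic classes Fkbp11 stood at 74.7 CPM in progenitor-like, 160.3 in immature, 325 in cycling and 803 in mature osteoblast-like cells. Its mature over immature log2 ratio was 2.32 (2.21 to 2.43). Zdhhc20, a palmitoyltransferase of IFITM proteins, was the 1 lower gene, at 62.9 and 135 CPM. The list median was -0.28 against -0.51 for all genes, of which 4.57% were higher and 21.7% lower. The tetraspanin Cd81 was higher in endothelial-like than osteogenic cells, at 1138 and 394 CPM. Fkbp11 and Ptgfrn were lower there, where 21.0% of all genes were higher and 12.9% lower. In leukocyte-like cells 5 of the 8 were lower, where 22.7% of all genes were, with a median of -1.16 against 0.13.

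Of 7 osteoblast factors, Sp7 (osterix) stood at 36.1, 73.0, 80.1 and 109 CPM over the 4 stages, a narrower range than Ifitm5. Runx2 was highest in immature cells at 221 CPM, and 2 factors, Gli1 and Dlx5, were lower in mature than immature cells. The list of 12 mineralizing osteoblast genes, which overlaps the class markers and so is no independent evidence, had 9 of 10 higher in mature cells, with a median of 3.37. Alpl, the phosphatase of early mineralization, was the lower one at 415 and 1156 CPM. Of all genes 4.57% were higher and 21.7% lower in mature cells, with a median of -0.51. Of 7 relatives with a CD225 domain in the matrix, 0 reached 10 CPM in the compared classes, and Ifitm10 peaked at 58.4 CPM in chondrocyte-like cells. Of the 15 genes within 100 kb of the members, 7 reached 10 CPM in some class, and of the 4 tested in mature over immature cells 0 passed a log2 ratio of 1 in either direction. Of the 4 tested in each other comparison, 1 was lower in progenitor-like than mature cells, where 6.1% of all genes were. Against osteogenic cells 1 was higher in endothelial-like cells, where 21.0% of all genes were, and 1 was lower in leukocyte-like cells, where 22.7% were.

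**Figure D5:**
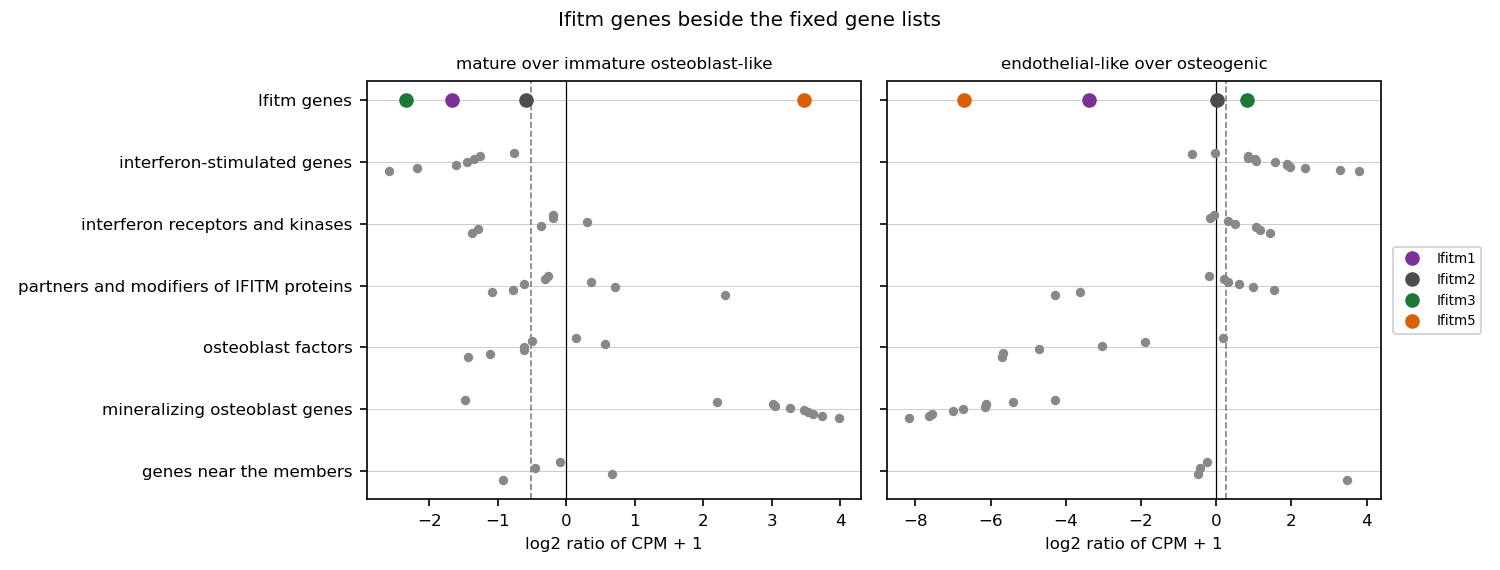
Log2 ratio of CPM + 1 for the Ifitm members (coloured) and the genes of 6 fixed lists (grey) in mature over immature osteoblast-like and in endothelial-like over osteogenic cells; each point is a gene at 10 CPM or more, the solid line is 0 and the dashed line the median of all genes. Ifitm5, at 3.48 on the left and -6.70 on the right, lies with the mineralizing osteoblast genes, and Ifitm3, at -2.33 and 0.81, on the same sides as most interferon-stimulated genes. Ifitm1, at -1.66 and -3.37, lies on the other side from most interferon-stimulated genes on the right. Ifitm2 is at 0.01 on the right and at -0.19 without the very abundant genes.

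Within a class, the members were not exclusive of each other. Among mature osteoblast-like cells an Ifitm3 UMI was found in 61.9% (55.7 to 67.9) of the 260 cells with Ifitm5 and in 56.2% (29.9 to 80.2) of the 16 without. In cycling osteoblast-like cells it was found in 86.8% (74.7 to 94.5) of the 53 cells with Ifitm5 and 98.2% (93.6 to 99.8) of the 110 without, and the intervals overlapped. Among neutrophil myelocyte-like cells Ifitm3 was found in 67.8% (63.2 to 72.1) of the 450 cells with Ifitm6 and 28.1% (17.6 to 40.8) of the 64 without. Here the intervals did not overlap. The class pools 3 clusters that differ in both genes, with Ifitm6 at 287, 1238 and 1683 CPM and Ifitm3 at 102, 266 and 296 CPM. The split was not made within a cluster.

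Across the 23 classes, whose values share 1 library and its depth, the log levels of Ifitm2 and Ifitm3 had the highest Pearson r of the member pairs, 0.74, and Ifitm5 and Ifitm6 the lowest, -0.27. Of 12539 genes, those most like Ifitm5 were Entpd3 (r = 0.93), Col22a1 (0.93), Phex (0.91), Dmp1 (0.91) and Bglap (0.90), of which all but Entpd3 are markers used to name the mature class. Those most like Ifitm6 were Stfa3 (0.96), Cd300lf (0.95), 2010005H15Rik (0.94), Stfa2l1 (0.94) and lipocalin (Lcn2, 0.93). For Ifitm3 they were Ccnl1 (0.86), Peli2 (0.84), Cmtm3 (0.82), the chemokine Ccl2 (0.81) and Atxn1l (0.81). For Ifitm2 they were Fam102b (0.88), Ctbp2 (0.85), Gpaa1 (0.85), Acad8 (0.83) and Gpr137 (0.82). Ifitm1 had the weakest best match, Slc35d3 (0.77), before Gm26522 (0.74), Vmp1 (0.74), Gm43672 (0.73) and Hgf (0.72).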

How the data were processed

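Barcoded 3′ transcripts of dissociated tibia cells were sequenced as 4 entries of 1 library. Per the labels, the authors aligned and counted the reads with Cell Ranger 3.1.0 against mm10 with added tdTomato and WPRE sequences, and the deposited values are raw UMI counts per gene and barcode. Seurat 3 is also named in the submitters' processing notes.

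Barcodes were kept at 1600 genes or more, with mitochondrial UMIs up to 10% and ribosomal protein UMIs up to 50%, and clustered in scanpy 1.11.5 (2000 variable genes without the Ifitm genes, 30 components, 20 neighbours, Leiden resolution 1), with leukocytes, osteogenic and endothelial cells clustered again. A cluster was named where at least 3 markers of a list were found and that list led it. These naming limits were chosen with the clusters already in view. Scrublet, at an expected rate of 10%, marked 588 barcodes (4.15%). These were kept, and left out as an alternative.

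UMIs were summed per class and divided by the class total. Poisson and binomial intervals (scipy 1.17.1) cover counting error only. Thinning to 5000 UMIs left out 360 of 8255 cells, and thinning to 3000 was an alternative. The ratios and shares were tested on simulated data drawn with counting error only. Unevenness between cells was left out of these data, so the test could not show its effect on the intervals. Ratios were log2 of CPM + 1 for genes at 10 CPM in either class. Named beside the members were the genes of fixed lists, up to 4 per list and comparison by size of ratio, and the 5 genes with the highest correlation to each member. 1 list gene is not reported here by name. The members and lists were chosen with earlier results of these data known. Gene positions come from GENCODE vM21 (GRCm38) and promoters from RefSeq (GRCm38.p6).

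Alternatives were other limits on genes, mitochondrial UMIs, variable genes and resolution, Scrublet, the Ifitm genes among the variable genes, another total, means over cells and tdTomato in place of WPRE.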

Additional observations from a re-analysis of the deposited data

How the results depend on the processing

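Of 67 values that answer a comparison under an alternative, 43 moved by no more than their counting interval and 24 moved. The direction held throughout except for the Ifitm2 ratio of endothelial-like over osteogenic cells, whose interval included 0 and which took either sign. The Ifitm1 ratio of progenitor-like over mature cells (3.28 to 3.90) and the Ifitm6 ratio of leukocyte-like over osteogenic cells (6.88 to 7.45) stayed in place under all 11 alternatives each.

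The Ifitm5 ratio of mature over immature osteoblast-like cells, 3.48, was 5.16 and 5.68 with at least 1000 and 2000 genes per cell, 3.02 and 5.25 with at most 5% and 20% mitochondrial UMIs, and 3.796 and 4.70 at Leiden resolutions 0.6 and 1.5. It was 5.37 without the cells Scrublet marks, 3.75 without the very abundant genes and 3.81 as a mean over cells. The immature level ran from 14.2 to 113 CPM across these choices.

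The Ifitm2 ratio of endothelial-like over osteogenic cells, 0.01, was 0.90 with at most 5% mitochondrial UMIs, 0.078 and 0.081 at resolutions 0.6 and 1.5, 0.076 without the cells Scrublet marks and -0.19 without the very abundant genes. The Ifitm3 ratio, 0.81, was 1.38 and 0.76 with at most 5% and 20% mitochondrial UMIs, 0.72 at resolution 1.5, 0.599 without the cells Scrublet marks, 0.74 with the Ifitm genes among the variable genes, 0.61 without the very abundant genes and 0.598 as a mean over cells.

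The Ifitm5 ratio of HC-derived over other mature cells, 0.15, was 0.063 at resolution 1.5, 0.33 without the cells Scrublet marks and 0.25 by tdTomato. The causes were not tested. Among the other values, 108 of 330 levels, 48 of 165 ratios and 19 of 30 shares moved.

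The main limits are 1 animal and 1 library, with no replicate to set a spread. The limit of 5% mitochondrial UMIs left 39 endothelial-like and 11 basophil or mast-like cells. No paired analysis was possible because the 4 sequencing entries were counted into 1 matrix with no map from cells to entries, and leaving out an entry could not be run for the same reason.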

Other observations

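The following splits were chosen after the values had been seen and are given as levels only. In basophil or mast-like cells most Ifitm1 came from few cells: the 15 cells with a UMI of Prss34, a basophil protease, held 683 of the 1242 Ifitm1 UMIs, at 2520 CPM, and the 117 cells without one stood at 249 CPM. Cells with a UMI of the mast cell protease Cpa3 stood at 954 CPM (51 cells) and those without at 177 CPM (81 cells). For the class marker Mcpt8 the levels were 813 CPM with a UMI (39 cells) and 301 CPM without (93 cells). For Kit they were 425 CPM with (98 cells) and 734 CPM without (34 cells). For the cycling gene Mki67 they were 572 CPM with (76 cells) and 323 CPM without (56 cells). Many cells of the class thus had no detected Mcpt8 or Prss34.

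Plasmacytoid dendritic-like cells were mixed as well. The 94 cells with a UMI of Siglech, a marker of these cells, held Ifitm3 at 141 CPM, Ifitm2 at 426 CPM, Ifitm1 at 75.9 CPM and Ifitm6 at 38.5 CPM. The 69 cells without one held 1001 CPM of Ifitm3, 1275 CPM of Ifitm2, 262 CPM of Ifitm1 and 117 CPM of Ifitm6. The class levels thus lay mostly with the cells in which Siglech was not detected. By the class marker Ccr9, Ifitm6 stood at 14.9 CPM (7.44 to 26.7) in the 80 cells with a UMI and 115 CPM in the 83 without.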
